A study of Mus musculus with 2 samples.

Results

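The genes of viral RNA and DNA sensing examined here were Ifih1, Ddx58, Mavs, Tlr3, Irf3, Irf7, Isg15, Ifnar1 and Adar. The rule names the genes and uses no peak value. All 9 were found among the 21938 protein-coding genes of the GENCODE mouse annotation (release vM21, mm10) on chromosomes 1 to 19, X and Y. For each, the 500 bp on either side of the gene start, the 5′ end of the annotated gene, were searched for ATAC-seq peaks, and where none was present the distance to the nearest peak was taken. ATAC-seq uses the transposase Tn5, which cuts and tags DNA that is not covered by nucleosomes, so that a local pile of fragments marks accessible chromatin.

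The cells were EHMT2-dTAG mouse embryonic stem cells (mESCs), derived from KH2 cells of a BL6/129 hybrid background, in which the endogenous histone methyltransferase EHMT2 carries a degron tag followed by an mCherry reporter. Cells of 2 independent clones, with 50000 cells each, received the vehicle DMSO for 24 h, so that EHMT2 was not depleted, and there was no second condition. The cultures contained FBS and LIF and, according to the study's methods, a feeder layer of mouse embryonic fibroblasts. The labels name no virus or interferon treatment. The deposited list of 116782 peaks, of which 116777 lie on chromosomes 1 to 19, X and Y, was called on both clones merged, so there is no spread between clones, and no test between conditions could be made.

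Cells recognise viral nucleic acids by where they are found and by their structure. RIG-I (Ddx58) and MDA5 (Ifih1) bind double-stranded RNA in the cytosol and signal through MAVS on the mitochondrial surface, whereas TLR3 meets double-stranded RNA in endosomes. Both routes activate the transcription factors IRF3 and IRF7, which induce type I interferon. Interferon binds the receptor chain IFNAR1 on the same or neighbouring cells and induces genes such as Isg15, which encodes a ubiquitin-like modifier. ADAR edits adenosine in double-stranded cellular RNA and thereby keeps it from being sensed by MDA5. Pluripotent cells are known for a weak interferon response compared with differentiated cells.

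Of the 9 genes, 7 had a peak at the gene start and Irf7 and Isg15 had none, where 64.3% of all protein-coding gene starts had one. With a stricter limit of 10 on the −log10 q-value, 5 of the 9 retained their peak, against 47.1% of all starts, with Ddx58 and Adar falling below that limit. With 9 genes, both counts lie near the background share. Among the 7 genes with a peak, fold enrichment, the ratio of the fragment pileup at the peak summit to the local background with 1 added to each, had a median of 8.06, and over all 14106 gene starts with a peak the median was 8.43. The fragment number at the summit had a median of 24 in the 7 genes, against 32 over all gene starts with a peak. Each fragment number below is given with its exact Poisson 95% interval, which covers counting error only.

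**Figure D1:**
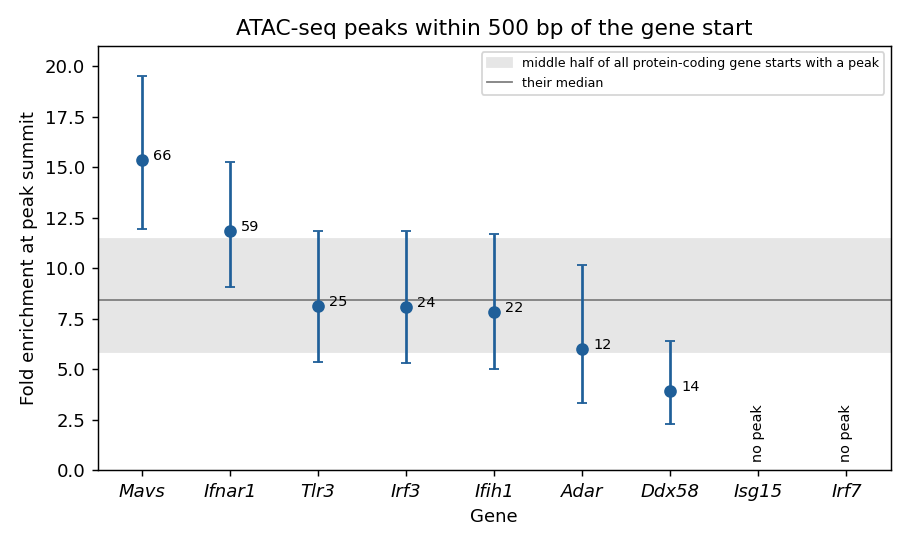
Fold enrichment at the summit of the peak within 500 bp of the gene start (vertical axis, ratio) for each gene (horizontal axis, ordered by value), with bars for the exact Poisson 95% interval of the fragments and the fragment number beside each point. The grey band spans the quartiles of all gene starts with a peak, 5.86 to 11.4, and the line is their median. Mavs and Ifnar1 lie above the band, Ddx58 below it, and Isg15 and Irf7 had no peak.

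All 3 double-stranded RNA receptors had a peak, and fold enrichment ranged from 3.93 to 8.13 with overlapping intervals. The peak of Ifih1, which encodes MDA5, the sensor of long double-stranded RNA, had 22 fragments at its summit (95% interval 13.8 to 33.3) and a fold enrichment of 7.82 (5.03 to 11.7). It spans 1166 bp at chr2:62645680-62646845, and its summit is 78 bp downstream of the start of the gene (ENSMUSG00000026896.14, chr2:62595798-62646255, minus strand), in an untranslated exon. This value lies at the 44.2 percentile of gene starts with a peak, near the middle of all promoters with a peak.

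Ddx58 encodes RIG-I, which recognises short double-stranded RNA with a 5′ triphosphate. Its gene start (ENSMUSG00000040296.15, chr4:40203773-40239828, minus strand) had 14 fragments (7.65 to 23.5) and a fold enrichment of 3.93 (2.27 to 6.41), the lowest of the 7, although its interval overlaps that of Adar, which had fewer fragments. This put it at the 8.04 percentile of gene starts with a peak. The peak, chr4:40238484-40240030, is 1547 bp long, wider than the upper quartile of 1333 bp for gene starts with a peak, and its −log10 q-value was 4.23. Its summit lies 561 bp downstream of the gene start in an intron of Ddx58, so the strongest point of a broad, low peak is not at the annotated start.

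Tlr3, the endosomal receptor, had 25 fragments (16.2 to 36.9) at the summit of the peak chr8:45409847-45411261 and a fold enrichment of 8.13 (5.37 to 11.8), at the 47.0 percentile. The summit is 685 bp downstream of the gene start (ENSMUSG00000031639.12, chr8:45395665-45411080, minus strand). That start belongs to a noncoding transcript, and the RefSeq start of Tlr3 lies 700 bp downstream of it, which puts the summit 15 bp upstream of the RefSeq start. The peak covers both starts. It also holds the start of Gm45542, an antisense gene, so that its fragments cannot be assigned to one of both. Repeat-masked bases make up 18.9% of this peak, the highest share among the 7, which ranged from 0% in Mavs.

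Mavs, the adaptor on which RIG-I and MDA5 converge, had the strongest peak of the group. Its summit held 66 fragments (51.0 to 84.0), with a fold enrichment of 15.4 (11.9 to 19.5) at a −log10 q-value of 56.7, and only 10 bp separate it from the gene start (ENSMUSG00000037523.13, chr2:131234063-131248025, plus strand). The peak, chr2:131233501-131234470, is 970 bp long and lay at the 93.8 percentile of gene starts with a peak. No other gene starts in it, and the nearest other gene start, that of Ap5s1, is 26985 bp upstream. The promoter of Mavs is printed because it carried the highest enrichment and a compact set of promoter elements. It is the RefSeq window from 250 bp before to 50 bp after the start (GRCm38.p6, chr2:131233813-131234112, plus strand), 5′ to 3′, and capitals mark 3 GC boxes, which read CCGCCC on this strand, and 2 CCAAT elements.
Mavs promoter: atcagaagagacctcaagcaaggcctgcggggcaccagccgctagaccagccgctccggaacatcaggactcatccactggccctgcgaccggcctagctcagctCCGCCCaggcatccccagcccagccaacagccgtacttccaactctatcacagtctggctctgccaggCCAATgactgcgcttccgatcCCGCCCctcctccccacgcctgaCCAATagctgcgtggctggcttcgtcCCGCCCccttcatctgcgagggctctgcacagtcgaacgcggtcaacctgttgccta
The GC boxes begin 145, 56 and 7 bp before the start and the CCAAT elements 77 and 33 bp before it, so that the summit, 10 bp before the start, lies between the innermost CCAAT element and the last GC box.

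The 2 transcription factors differed in the presence of a peak. Irf3, which is made constitutively and activated by phosphorylation, had 24 fragments (15.4 to 35.7) and a fold enrichment of 8.06 (5.28 to 11.8) in the peak chr7:44997026-44998111, at the 46.5 percentile. The summit lies 237 bp upstream of the gene start (ENSMUSG00000003184.15, chr7:44997648-45002848, plus strand), inside an intron of Bcl2l12. Bcl2l12 runs in the opposite direction and has 5 transcript starts within 500 bp of the Irf3 start, so the peak is shared by both genes and cannot be assigned to Irf3 alone.

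Irf7, the factor that is itself induced by interferon and amplifies the response, had no peak at its start (ENSMUSG00000025498.15, chr7:141262706-141266481, minus strand). The nearest peak, chr7:141269156-141269528, begins 2675 bp upstream in a coding exon of Cdhr5 and is 373 bp long. It held 8 fragments (3.45 to 15.8) at a fold enrichment of 3.72, below the median of 3.98 over all peaks. All 13 annotated Irf7 transcripts lacked a peak within 500 bp of their start, and no peak lay in the body of the gene. The lowest fragment number of any peak in the list was 6, so accessibility below that level was not detectable at this depth. The Irf7 promoter (GRCm38.p6, chr7:141266375-141266674, minus strand) is printed as that of a gene without a peak, with its single motif match, a TATAAA at 29 to 24 bp before the RefSeq start, in capitals.
Irf7 promoter: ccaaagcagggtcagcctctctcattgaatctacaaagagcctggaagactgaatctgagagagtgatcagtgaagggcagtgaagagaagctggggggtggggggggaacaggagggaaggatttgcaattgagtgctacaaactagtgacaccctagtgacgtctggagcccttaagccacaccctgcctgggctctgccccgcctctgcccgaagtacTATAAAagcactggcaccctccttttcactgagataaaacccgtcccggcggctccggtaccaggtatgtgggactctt
This window holds 7 CpG dinucleotides, against a median of 13 over all protein-coding promoters.

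Ifnar1, one chain of the type I interferon receptor, had the second strongest peak. It held 59 fragments (44.9 to 76.1) with a fold enrichment of 11.9 (9.07 to 15.2), which put it at the 78.0 percentile of gene starts with a peak. The −log10 q-value was 43.4. The peak, chr16:91484547-91485512, is 966 bp long and has its summit 118 bp upstream of the gene start (ENSMUSG00000022967.13, chr16:91485238-91507441, plus strand), between genes. Interferon receptor genes lie side by side on chromosome 16, and the starts of the neighbours on the same strand had 18 fragments and a fold enrichment of 6.99 at Ifnar2, the other chain, and 20 fragments and 8.14 at Il10rb, the shared chain of the interferon lambda and interleukin 10 receptors. The start of Ifngr2, a chain of the interferon gamma receptor, had no peak. The fold interval of Ifnar1 overlaps those of Ifnar2 (4.29 to 10.8) and Il10rb (5.12 to 12.4), since the local background was 4.06 fragments at Ifnar1 but 1.72 and 1.58 at its neighbours. The Ifnar1 promoter (GRCm38.p6, chr16:91484965-91485264, plus strand) is shown because it is the most densely marked of the group, with 4 GC boxes (GGGCGG), 2 ETS elements (CCGGAAG), 1 NRF1 element and 1 GAS element in capitals.
Ifnar1 promoter: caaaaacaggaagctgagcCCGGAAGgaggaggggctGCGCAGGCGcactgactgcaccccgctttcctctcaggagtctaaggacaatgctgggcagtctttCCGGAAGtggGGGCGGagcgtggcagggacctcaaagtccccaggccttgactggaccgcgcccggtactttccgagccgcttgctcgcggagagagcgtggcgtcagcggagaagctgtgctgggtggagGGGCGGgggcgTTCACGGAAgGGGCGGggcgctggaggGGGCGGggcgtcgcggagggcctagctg

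Isg15 had no peak within 500 bp of its start (ENSMUSG00000035692.6, chr4:156199424-156200818, minus strand). The nearest peak, chr4:156202927-156203890, begins 2109 bp upstream and held 8 fragments (3.45 to 15.8) at a fold enrichment of 3.78. It covers the start of AW011738, a gene on the other strand that begins 2486 bp upstream of Isg15, and its summit lies in a coding exon of that gene. Thus neither of the genes without a peak had one within 2000 bp. The Isg15 promoter (GRCm38.p6, chr4:156200769-156201068, minus strand) is printed because, without a peak, it holds the densest run of interferon-stimulated response elements (ISREs) of the group. Its 3 ISRE cores (GAAANNGAA) overlap one another between 78 and 58 bp before the start and appear as 1 run of capitals.
Isg15 promoter: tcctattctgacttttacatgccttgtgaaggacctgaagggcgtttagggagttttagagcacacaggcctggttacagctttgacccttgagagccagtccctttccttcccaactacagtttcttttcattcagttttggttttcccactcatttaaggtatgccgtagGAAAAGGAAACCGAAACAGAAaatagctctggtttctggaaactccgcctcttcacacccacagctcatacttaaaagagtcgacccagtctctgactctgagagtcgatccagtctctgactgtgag

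Adar had peaks at both of its starts used by protein-coding transcripts, and the stronger one was not at the gene start. At the gene start (ENSMUSG00000027951.16, chr3:89715022-89753446, plus strand) the peak chr3:89714581-89715723 had 12 fragments (6.20 to 20.96) and a fold enrichment of 6.01 (3.33 to 10.2), at the 26.4 percentile. The second start, 15726 bp downstream, is that of 4 protein-coding transcripts. There the peak chr3:89730592-89731221 had 25 fragments (16.2 to 36.9) and a fold enrichment of 10.2, with a −log10 q-value of 19.4 against 6.96 at the gene start. The intervals of the fragment numbers overlap, which alone does not decide whether the heights differ, and the difference was not tested. The windows at both starts are printed for comparison (GRCm38.p6, chr3:89714772-89715071 and chr3:89730468-89730767, plus strand), because an interferon-inducible promoter of Adar is known beside a constitutive one. In the first, capitals mark a CCAAT element 10 to 14 bp after the start, and in the second 2 ISRE cores, 2 GC boxes and 1 GAS element.
Adar, gene start: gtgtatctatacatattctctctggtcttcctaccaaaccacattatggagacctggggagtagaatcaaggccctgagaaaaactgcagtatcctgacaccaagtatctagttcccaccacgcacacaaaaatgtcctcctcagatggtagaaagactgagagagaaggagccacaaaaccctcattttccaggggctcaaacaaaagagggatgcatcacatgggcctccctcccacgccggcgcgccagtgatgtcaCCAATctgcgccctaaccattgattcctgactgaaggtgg
Adar, second start: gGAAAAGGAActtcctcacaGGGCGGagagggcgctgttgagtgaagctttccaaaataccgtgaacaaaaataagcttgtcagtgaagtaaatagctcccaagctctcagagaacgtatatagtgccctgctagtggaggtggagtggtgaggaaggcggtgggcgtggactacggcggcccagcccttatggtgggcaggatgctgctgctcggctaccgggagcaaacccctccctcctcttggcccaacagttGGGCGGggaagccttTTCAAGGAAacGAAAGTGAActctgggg
In the second window the GAS element lies 22 to 30 bp and an ISRE core 33 to 41 bp after the RefSeq start, and the summit of the peak lies 64 bp after it.

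When the 7 genes were ordered by fold enrichment, Mavs was followed by Ifnar1, Tlr3, Irf3, Ifih1, Adar and Ddx58. Every pair of neighbours in this order had overlapping intervals, which alone does not decide whether neighbours differ. The interval of Mavs lay above those of Tlr3, Irf3, Ifih1, Adar and Ddx58, although the gap to Tlr3 was narrow (lower bound 11.9 against an upper bound of 11.8). The interval of Ifnar1 lay above that of Ddx58 alone. Tlr3, Irf3 and Ifih1, between 7.82 and 8.13, could not be told apart, with 22 to 25 fragments each. Local background also differed, from 1.16 expected fragments at Adar to 4.06 at Ifnar1, so that the 12 fragments at Adar gave a higher fold enrichment than the 14 at Ddx58, where the background was 2.82.

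Peaks were next counted from 10000 bp upstream of each gene start to the gene end, to see whether the genes have accessible sites beyond their starts. The 9 genes had 24 peaks in this range, 7 at the gene start, 4 upstream and 13 in the gene body. Ifih1 and Ddx58, of 50458 and 36056 bp, held 5 body peaks each and Adar, of 38425 bp, held 1, whereas Mavs and Tlr3 had no peak other than that at the start. Over whole chromosomes the list held 47.9 peaks per Mb on chromosome 2 (Ifih1), 43.6 on chromosome 4 (Ddx58) and 43.8 on chromosome 3 (Adar). Upstream and body peaks were not counted over all genes, so these counts have no such share to be set against. The strongest of the 24 away from an annotated start lay 8563 bp upstream of Ifih1, between genes, at chr2:62654411-62655023. Its 18 fragments and fold enrichment of 7.98 nearly equal the 7.82 at the Ifih1 start itself. In contrast, the body peaks of Ifih1 held 6 to 8 fragments and fold enrichments of 2.97 to 4.16, close to the lowest fragment number in the list.

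In Ddx58, 3 of the 5 body peaks had at least the enrichment of the peak at the start. The highest, in an intron 21186 bp downstream, had 19 fragments and a fold enrichment of 5.15, against 14 fragments and 3.93 at the gene start. Its 19 fragments lie within the interval of the count at the gene start (7.65 to 23.5), and the difference was not tested. Peaks also lay within 500 bp of annotated noncoding transcript starts 11472 and 19228 bp downstream, with fold enrichments of 3.94 and 3.95. Thus the start of Ddx58 does not stand out from the rest of its own gene in this list. Ifnar1 showed the opposite pattern, with 11.9 at the start, 4.01 at a site 4595 bp upstream and 3.70 at a site 11250 bp downstream. In Irf3 the second peak, 1054 bp downstream in exons of both Irf3 and Bcl2l12, had 8 fragments and a fold enrichment of 2.83. This peak covers the annotated gene start of Bcl2l12, 1064 bp downstream of that of Irf3, and cannot be assigned to Irf3 alone. The body peak of Adar is that of the second start described above.

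**Figure D2:**
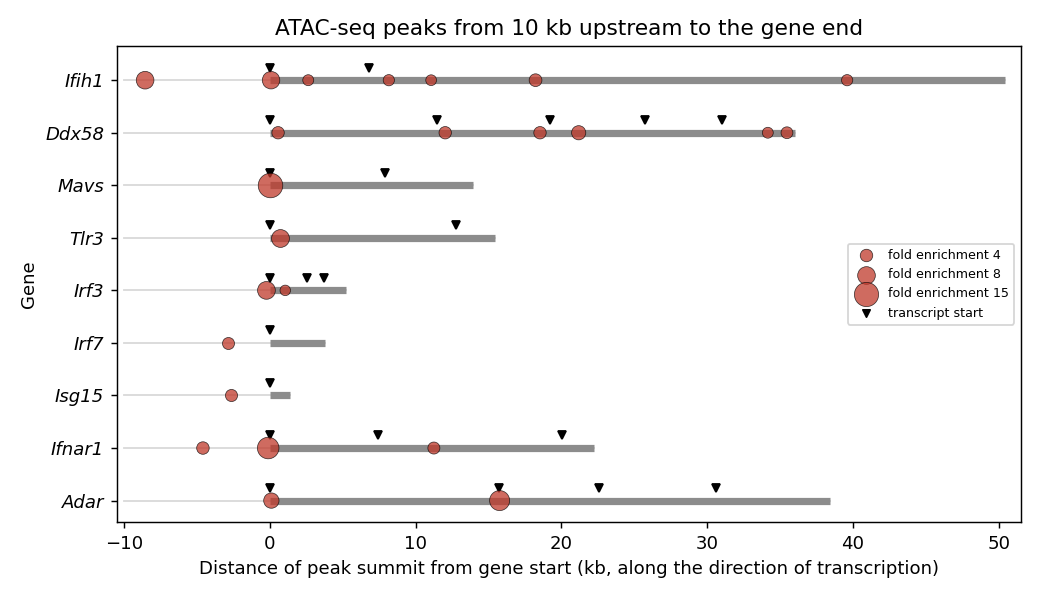
Position of each peak summit relative to the gene start (horizontal axis, kb along the direction of transcription, from 10 kb upstream to the gene end) for the 9 genes (rows). Circles are peaks with an area proportional to fold enrichment, grey bars are the genes and triangles mark the first position of each group of annotated transcript starts. Irf7 and Isg15 have a single peak upstream of the gene and none at the start, and Adar has its larger circle at the second start.

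Since most mouse promoters with many CpG dinucleotides are accessible irrespective of the cell type, the sequence of the promoters was examined. In all, 11 RefSeq promoters of 300 bp matched the 9 genes, 3 of them for Adar, among 21263 promoters of protein-coding genes. The ratio of observed to expected CpG had a median of 0.567 over all promoters. Irf7 at 0.310 and Isg15 at 0.377, the genes without a peak, were among the 3 lowest of the 11, and the other was the first Adar window at 0.326, which did have a peak. Next came Tlr3 at 0.524, the second Adar start at 0.532, Mavs at 0.667, Irf3 at 0.712, Ddx58 at 0.714 and Ifnar1 at 0.787. The highest were Ifih1 at 0.819 and a further Adar start, 216 bp downstream of the first, at 0.942.

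Below a ratio of 0.4, 23.8% of all promoters had a peak within 500 bp, as did 1 of the 3 windows of the sensing genes. Between 0.4 and 0.8 the share was 87.7% and 6 of 6 windows had a peak, and at 0.8 or more it was 97.0% and 2 of 2. The Adar windows in the lowest and the highest class start 216 bp apart and share 1 peak. The windows of Irf7 and Isg15, without a peak, were in the class where most promoters of any kind lacked one. Within this class both had ratios between 0.3 and 0.4, where 46.6% of all promoters had a peak, as had the first Adar window. Between the genes with a peak, enrichment did not follow the CpG ratio in a simple order, since Mavs, with the highest enrichment, had a lower ratio than Ddx58, with the lowest.

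**Figure D3:**
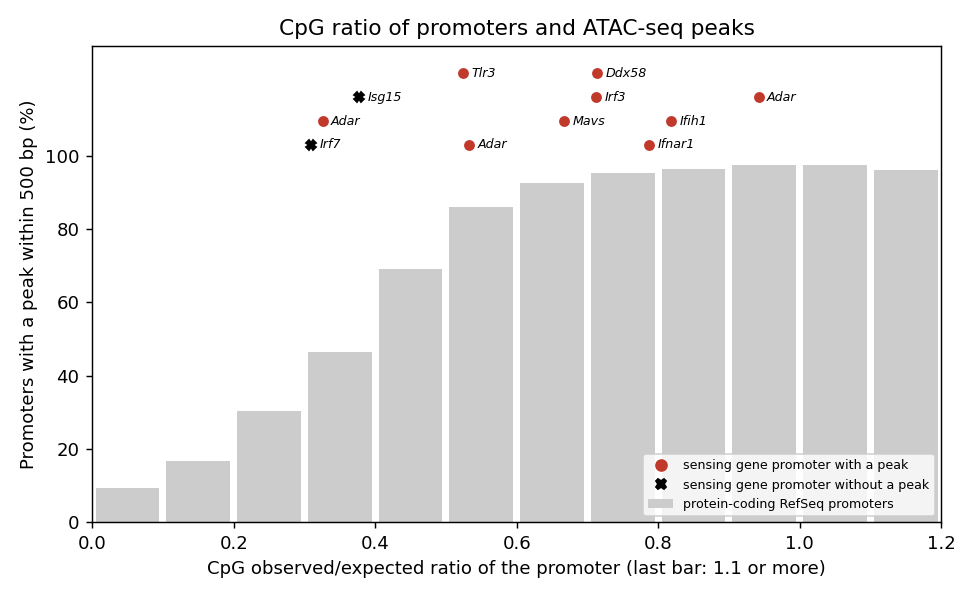
Share of protein-coding RefSeq promoters with a peak within 500 bp of the start (vertical axis, percent; grey bars) by the ratio of observed to expected CpG in the 300 bp window (horizontal axis, bins of equal width, the last bin open-ended). Symbols above the bars stand at the ratios of the 11 sensing gene promoters, circles for those with a peak and crosses for Irf7 and Isg15 without one, and their height carries no value. Both crosses stand in the bin where 46.6% of all promoters had a peak.

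Short elements were searched by their letters on both strands of the same windows, and a match is only a description. ISRE cores (GAAANNGAA), the element bound by IRF and STAT complexes, were present in 8.15% of all promoters and in 4 of the 11 windows, those of Ddx58, Ifih1, Isg15 and the second Adar start. Of all promoters with an ISRE core 52% had a peak, against 66.3% of those without. Among the 4 sensing gene windows with a core, 3 had a peak and that of Isg15, with the most cores, had none. The GAS element (TTCNNNGAA), a STAT site, was present in 7.69% of all promoters and in those of Ifnar1 and the second Adar start.

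GC boxes (GGGCGG), bound by SP factors, were present in 46.2% of all promoters and in 7 of the 11 windows, from 6 genes. Of all promoters with a GC box 91.4% had a peak, against 42.6% without, and each of these 7 windows had a peak. The 4 windows without one were those of Irf7 and Isg15, which had no peak, and of Ifih1 and the first Adar start, which had one. TATAAA, present in 12.6% of promoters, of which 34.5% had a peak, was found in Irf7 and Ddx58. The ETS element (CCGGAAG) was found in Ifih1 and Ifnar1 and the NRF1 element (GCGCANGCG) in Irf3 and Ifnar1, each of which had a peak, as had 93.0% and 96.5% of all promoters with these elements. CCAAT, present in 38.2% of promoters, was found in Mavs and in the Adar windows at the gene start and 216 bp downstream, and the E-box CACGTG, present in 7.84%, in none.

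To place the 9 genes in their pathway, 9 lists with 110 genes were counted in the same way. Of these 110, 76 had a peak at the gene start (69.1%, near the 64.3% of all protein-coding starts, with which the counts below are also to be compared), with a median fold enrichment of 6.66 against 8.43, and of the 101 genes other than the 9, 69 had one. Cytosolic RNA sensing had a peak at 9 of 10 genes, with a median of 6.61. Mavs was the highest of them and Ddx58 the lowest, and only Dhx58, which encodes the third RIG-I-like receptor LGP2, had none, with the nearest peak 1432 bp away. In the list of endosomal Toll-like receptors and adaptors 6 of 9 genes had a peak. Tlr3 was the only receptor among them, since Tlr7, Tlr8 and Tlr9, which sense single-stranded RNA or DNA, lacked a peak, with the nearest 13890, 12402 and 3180 bp away. The adaptors and kinases of the list ranged from 4.62 at Unc93b1, a chaperone of these receptors, to 16.4 at Irak4, a kinase downstream of MyD88.

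DNA sensing had a peak at 7 of 11 genes and a median of 5.55, the highest being Dnase2a (7.82), a lysosomal nuclease, and the lowest Rnaseh2a (4.55), a subunit of the nuclease for RNA in DNA hybrids. Tmem173, which encodes STING, the adaptor for cytosolic DNA, had none, with the nearest peak 9810 bp away. Its counterpart in RNA sensing, Mavs, had the highest value of its list. Ifi204, Zbp1 and Trex1 also lacked a peak, with distances of 12308, 566 and 28372 bp. The kinases and adaptors between sensors and transcription factors had a peak at 10 of 11 genes with a median of 8.33, from 3.16 at Traf3 to 12.4 at Traf2, both of which encode signalling adaptors. The exception was Tank, whose gene start is 548 bp from a peak and which had 99 fragments and a fold enrichment of 17.4 at another annotated start.

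Among the interferon regulatory factors, Irf7 alone of 9 had no peak. Irf3, at 8.06, was close to the list's median of 7.39, and the lowest with a peak was Irf5 (3.55), a factor of myeloid cells. The receptors and the JAK-STAT genes had the highest median of the 9 lists, 11.3, with 10 of 12 genes, all 10 of them at a −log10 q-value above 10, a limit that 47.1% of all starts passed. They ranged from Ifnar2 (6.99) to Tyk2 (17.1), the kinase that binds IFNAR1, whereas Ifngr2 and Ifnlr1, the receptor chain for interferon lambda, had no peak at the gene start, with the nearest 5124 and 1128 bp away. Ifngr2 had a peak of 9 fragments at another annotated start.

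The interferon genes themselves had the lowest share of genes with a peak of the 9 lists, 5 of 16 (31.2%), with a median of 3.24. Ifnb1, Ifna5 and Ifna12 had the lowest value, 3.24 with 6 fragments each, and Ifnz the highest, 5.08 with 52 fragments. Ifna13, Ifnk and Ifna14, the nearest to a peak of those without one, were 2197, 3363 and 3714 bp away. Interferon alpha and zeta genes exist in near-identical copies, and reads that match several copies were placed at 1 of them, so these values are uncertain.

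Interferon-stimulated effectors, the list that holds Isg15, had a peak at 16 of 27 genes with a median of 5.60. At the stricter limit of 10 on the −log10 q-value 6 of the 27 had a peak, where 47.1% of all starts had one. The highest was Ifit2 (13.2 with 53 fragments), which encodes a protein that binds viral RNA, and the lowest Ifitm3 (3.66), which encodes a membrane protein that blocks virus entry. Isg20, Oas2 and Rtp4 were the nearest to a peak of those without one, at 752, 1054 and 1163 bp, compared with 2109 bp for Isg15. The list named for adenosine deaminases acting on RNA, which also holds Adad1 and Adad2, had a peak at 5 of 5 genes with a median of 6.12. Adar at its gene start was the second lowest of them (6.01), and the range was 5.62 at Adad2, a testis gene, to 11.1 at Adarb1, the editor of neuronal transcripts.

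**Figure D4:**
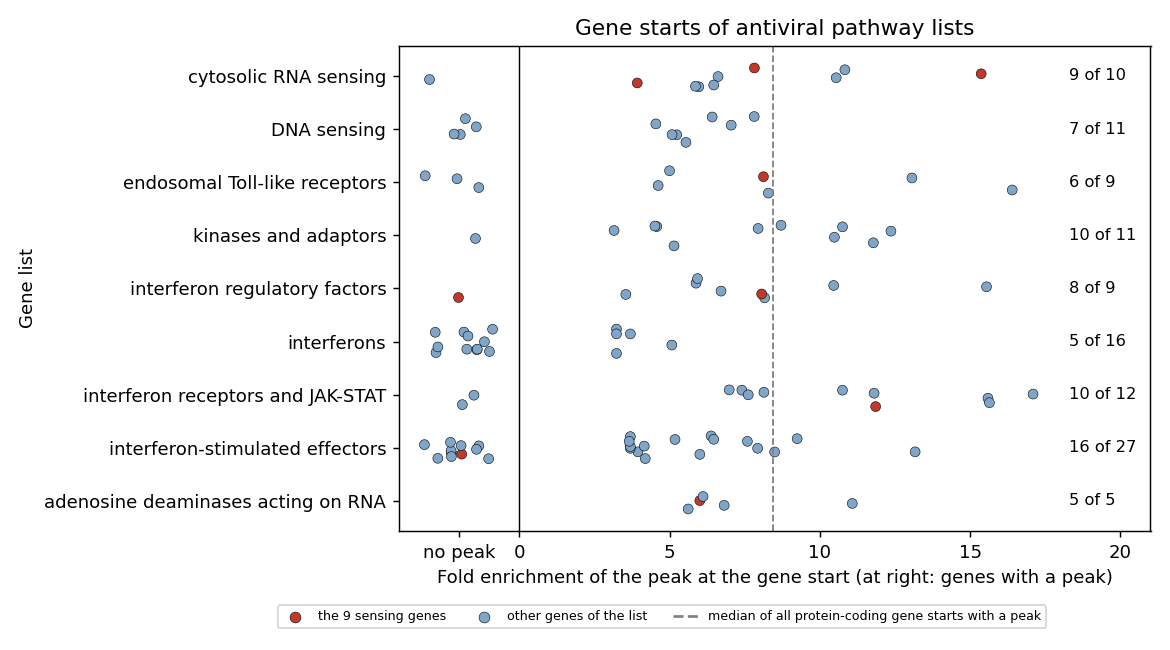
Fold enrichment of the peak at the gene start (horizontal axis, ratio) for the genes of 9 antiviral pathway lists (rows), with genes without a peak placed left of 0. Red points are the sensing genes, blue points the other genes of each list, and the dashed line is the median of all protein-coding gene starts with a peak, 8.43. Counts at the right give the genes with a peak, with the lowest share for the interferons (5 of 16) and with Mavs at the far right of cytosolic RNA sensing.

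The labelled cell type was compared with marker genes. Of 8 mESC markers 7 had a peak at the gene start, with a median fold enrichment of 5.22 and 378 fragments in all, of which Zfp42 held 151. Pou5f1 had 17 fragments at a fold enrichment of 2.83 and Nanog 40 at 4.12, and Esrrb had a peak only at another annotated start. Of 7 fibroblast markers, which the feeder layer could contribute, 4 had a peak, with a median fold enrichment of 5.94 and 64 fragments in all, the most at Col1a2 (23), and Col1a1 had 18 at 6.42. Col3a1, Postn and Pdgfra had none at the gene start, although Pdgfra had one of 67 fragments and Postn one of 6 at another annotated start, so that 6 of the 7 had a peak at some start. Over all protein-coding genes 70.0% had a peak at some annotated start, against 64.3% at the gene start. Of 5 blood markers, Csf1r alone had a peak at the gene start, with 6 fragments, and 3 had one at some start, Spi1 with 9 fragments. Ptprc, which encodes CD45, had none at its gene start, with the nearest 4107 bp away and 14 fragments at another annotated start. All of these are accessibility and not expression, and the part of feeder cells in the peaks of the sensing genes was not tested.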

How the data were processed

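Technical replicates were merged and trimmed (BBMap) by the authors, and alignment to mm10 was by STAR 2.7.10 with 1 location per read. Duplicates were removed with Picard 2.26.0 and, according to the study's methods, reads in blacklisted regions with SAMtools 1.14. Ends were corrected for the Tn5 offset, and MACS2 2.2.6 called peaks at a q-value of 0.05. The tool bedtools 2.30.0 is also named in their processing notes. The deposited list gives the summit's fold enrichment, a ratio, its −log10 p-value and −log10 q-value, and a score that equals 10 times the −log10 p-value, rounded down, for 99.9% of peaks and was not used further. Summit offsets were used as deposited and positions count from 1.

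Fragments over each summit were derived from both values by inverting the MACS2 Poisson formulas. They came out whole for 116778 peaks, within 0.01 of the −log10 p-value, and were recovered for 99.96% of 19361 simulated peaks. Library totals were not analysed here. Of the 116782 peaks, 3 mitochondrial ones and 2 on a non-mouse sequence were left out of counts by chromosome. Annotation came from GENCODE vM21, while the study used a later release, and promoter sequences from RefSeq (GRCm38.p6, the build of mm10). Where several peaks overlapped a window, the one of highest fold enrichment was taken, but no sensing gene had more than 1. Fold intervals hold the background fixed.

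The genes, lists and motifs were chosen with earlier results of these data known. All 9 genes were named, and from each list the highest and lowest gene with a peak and those without a peak, or the 3 nearest to one where there were over 5. For 1 gene that fits this rule, only its share in list counts is given, and it is not reported here. Ifnar2, Il10rb and Ifngr2 as neighbours of Ifnar1, and Zfp42, Col1a2 and single markers without a peak, were named after their values were seen. Alternatives were a limit of 10 on the −log10 q-value, windows of 250, 1000 and 2000 bp, the summit within 500 bp, and any annotated transcript start. Calculations used Python 3.11.15, NumPy 2.4.6, pandas 2.3.3, SciPy 1.17.1 and pysam 0.24.0.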

Additional observations from a re-analysis of the deposited data

How the results depend on the processing

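With a limit of 10 on the −log10 q-value, the genes with a peak fell from 7 to 3 in DNA sensing and from 10 to 6 among kinases and adaptors. They fell from 5 to 1 among interferons, from 16 to 6 among interferon-stimulated effectors and from 5 to 2 in the list named for adenosine deaminases. This limit by construction removes the weaker peaks, and the share of all gene starts fell from 64.3% to 47.1%. No other list count moved by over 1.5 times at that limit, with a window of 2000 bp or at any transcript start. At Adar fold enrichment was 6.01 at the gene start and 10.2 when any transcript start counted. The 9 sensing genes had 7 peaks under windows of 250, 1000 and 2000 bp and at any transcript start, and 5 when the summit had to lie within 500 bp (without Ddx58 and Tlr3), where the share of all gene starts was 62.9%, 66.4%, 69.9%, 70.0% and 57.4%. Irf7 and Isg15 had no peak under any of these 6 settings. No paired analysis was possible because 1 merged list holds both clones, and for the same reason no clone could be left out. The depth of 6 to 66 fragments at these peaks leaves wide intervals, and accessibility too low to be called as a peak was not measured.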
